A study of Homo sapiens with 4 samples.

Results

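The replicative helicase is the enzyme that unwinds DNA ahead of the polymerases in S phase. It was followed here through 10 genes: MCM2, MCM3, MCM4, MCM5, MCM6, MCM7, MCM10, CDC45, GINS1 and GINS2. Its members were taken as every probe set whose annotation gives exactly 1 gene symbol and that symbol is one of these 10, which gave 21 of the 41091 probe sets with 1 symbol, and 10 of 19775 genes. RNA came from HepG2, a human liver cancer line with many hepatocyte features, and was hybridised to the U133 Plus 2.0 array of Affymetrix. There was 1 untreated array (0 h) and 1 array each after 2, 6 and 12 h of APRIL at 200 ng/ml; APRIL is a soluble cytokine related to tumour necrosis factor. All cells had been deprived of serum beforehand, overnight according to the labels' protocols and for 24 h according to the design text. No untreated array at 2, 6 or 12 h was used here, so time in culture and treatment cannot be told apart.

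The helicase is built in steps. The ring of MCM2 to MCM7 is loaded around DNA as an inactive double hexamer in G1 by the origin recognition complex, CDC6 and CDT1. In S phase CDC45 and the GINS complex join each ring, which makes the active helicase known as CMG, and MCM10 is needed for its activation. Genes of this machinery are textbook targets of the E2F transcription factors, which switch on S-phase genes when cells leave G1.

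The stretches below show where the promoters of the members hold the short words that E2F factors and the CCAAT-binding factor NF-Y are known to bind. They come from RefSeq windows on GRCh38.p14 that run from 250 bases before to 50 bases after an annotated transcription start. Windows were available for 8 of the 10 members, 12 windows in all, with 3 each for MCM7 and CDC45. Capitals mark an E2F word (TTTCCCGC, TTTCGCGC, TTTGCCGC or TTTGGCGC, on either strand) in the first 8 stretches, and CCAAT (either strand) in the last 2. Each is written 5′ to 3′ on the strand of the gene, with the strand given after the coordinates.
MCM6, chr2:135876513-135876603, minus: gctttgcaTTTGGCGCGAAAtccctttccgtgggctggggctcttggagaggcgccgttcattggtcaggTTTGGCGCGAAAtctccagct
MCM2, chr3:127598405-127598433, plus: gaaccactTTTCGCGCGAAAcctggttgt
MCM3, chr6:52284892-52284932, minus: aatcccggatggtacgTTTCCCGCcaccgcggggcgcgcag
MCM3, chr6:52284733-52284760, minus: aagagttcggaagtTTTCGCGCcggggt
MCM7, chr7:100101557-100101597, minus: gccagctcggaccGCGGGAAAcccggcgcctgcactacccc
MCM7, chr7:100101398-100101437, minus: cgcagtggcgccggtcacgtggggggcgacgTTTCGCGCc
GINS1, chr20:25407667-25407694, plus: agctttgttcgGCGCCAAAgcgcggagc
GINS2, chr16:85688955-85689014, minus: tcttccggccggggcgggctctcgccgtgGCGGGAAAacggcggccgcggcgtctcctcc
MCM10, chr10:13161428-13161478, plus: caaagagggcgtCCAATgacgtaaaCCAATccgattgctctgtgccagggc
CDC45, chr22:19479803-19479830, plus: cgcctCCAATgtggcCCAATcagaaaga

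An E2F word was found in 6 of the 8 members with a window: MCM2, MCM3, MCM6, MCM7, GINS1 and GINS2. Over all 35116 windows of this length 3.31% held one, and over all genes with a window 3.99%. In MCM6 and MCM2 an E2F word on one strand overlaps an E2F word on the other, as TTTGGCGCGAAA in MCM6 at bases -152 to -141 and -90 to -79 from the start, and as TTTCGCGCGAAA in MCM2 at bases 3 to 14. Of all windows 6 held either of these 12-letter words, 2 of them members, and the words were chosen after the members' windows had been read. MCM10 and CDC45 held no E2F word in their windows and held CCAAT instead, which is common: 34.6% of all windows have it, and 7 of the 8 members with a window. A further word searched, TTTGAA, the cell cycle homology region of G2/M promoters, was in none of the 12 windows and in 15.2% of all. These are matches of letters and were not measured as binding.

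The deposited values were read as log2 values relative to each probe set's own median over the 4 arrays, with higher values as more transcript. The log base and the direction are not given in the sources used here and were assumed. The values hold no expression level, so one gene's level cannot be set against another's. Each median lies midway between the 2 middle arrays, so these 2 have values of equal size and opposite sign by construction. With 1 array per time there was no replicate, no test and no p-value, and each log2 ratio compares 2 arrays. Precision is limited by having only 4 arrays. As yardsticks the SD between the probe sets of a gene is given, and the robust SD of the 2 h over 0 h ratio across genes, which was 0.16. Neither measures variation between cultures.

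At 12 h the helicase genes were lower than on the untreated array. Their median log2 ratio was -1.24 (2.37-fold lower), beside 0.0100 over all genes. All 10 members were below 0, beside 47.7% of all genes, and 6 were at or past 2-fold lower: MCM10, MCM6, GINS1, MCM2, MCM4 and CDC45. Over all genes 0.986% were at or past 2-fold lower. Of the 21 probe sets, 14 were at or past 2-fold lower, beside 1.57% of all probe sets with 1 symbol. The 12 h array held the lowest of the 4 values in 20 of the 21, beside 27.5% of all. In 19 of the 21 the 12 h value lay further below the next array than the other 3 arrays spanned, beside 9.66% of all. In RNA from a whole culture, fewer cells in S phase and less RNA per cell cannot be told apart.

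The 12 h array differed in its added control RNAs, so each 12 h value depends on the scale on which it is read. Why they differed was not tested. The controls are bioB, bioC and bioD of bacteria and cre of phage P1, added at hybridisation and called bacterial RNAs here. Their 18 probe sets had, at 12 h over 0 h, a median of -0.35, and all 18 were below 0. Several probe sets read each added RNA, so these are not 18 separate controls. Relative to them every gene's 12 h over 0 h ratio is 0.35 higher, and the median of all genes is 0.36, so the place of a list or gene relative to all genes does not change. All 10 members stayed below 0 on that scale, with a median of -0.89, and 4 were at or past 2-fold lower (MCM10, MCM6, GINS1 and MCM2), beside 0.384% of all genes. MCM3 at -0.073 and GINS2 at -0.097 were then close to 0. The value of GINS2 is a median of 3 probe sets that were far apart (SD 0.96).

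**Figure D1:**
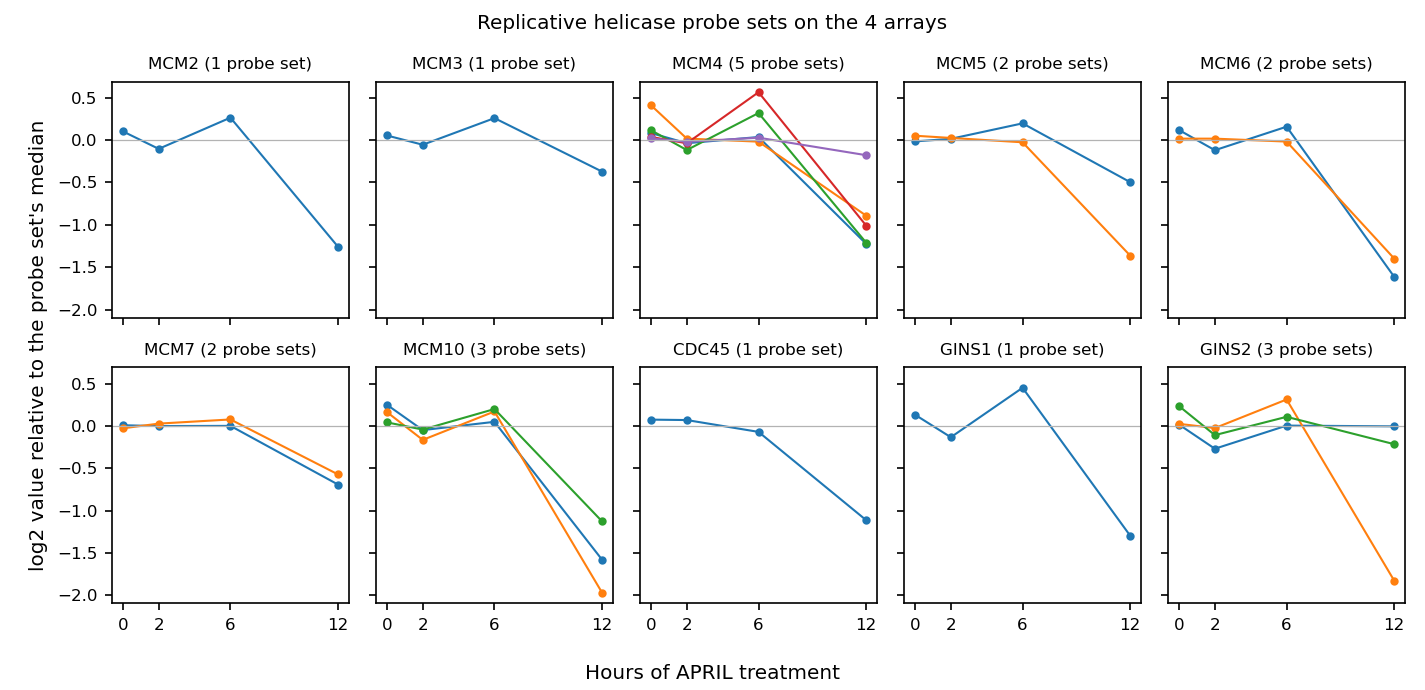
Deposited log2 value of each of the 21 helicase probe sets, relative to that probe set's median, against hours of APRIL treatment; each line is 1 probe set and each point 1 array. In 20 of the 21 the lowest value is at 12 h, and the exception is a GINS2 probe set that is lowest at 2 h.

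Within the MCM2 to MCM7 ring, 3 of the 6 subunits (MCM2, MCM4 and MCM6) were at or past 2-fold lower at 12 h, and the 6 had a median log2 ratio of -1.13. MCM6 was the lowest of the 6. Its probe set 201930_at read 0.12 (0 h), -0.12 (2 h), 0.16 (6 h) and -1.61 (12 h), and 238977_at read 0.017, 0.017, -0.017 and -1.40. Both put the first 3 arrays close together and the 12 h array far below, at a gene ratio of -1.57 (SD 0.22 over 2 probe sets) or 2.98-fold lower.

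MCM2, the subunit that also carries histones at the fork, has 1 probe set. It read 0.10 (0 h), -0.10 (2 h), 0.27 (6 h) and -1.26 (12 h). The log2 ratio of 12 h over 0 h was -1.36, or 2.57-fold lower.

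MCM4, part of the stable core of the ring with MCM6 and MCM7, is read by 5 probe sets. At 12 h over 0 h their log2 ratios were -1.33 for 222036_s_at, -1.31 for 212141_at, -1.30 for 212142_at, -1.05 for 222037_at and -0.20 for 242479_s_at. The first 4 are each past 2-fold lower and the last is not. The gene ratio was -1.30 (SD 0.48 over 5). The same 5 had no common direction at 6 h, where ratios over 0 h ran from -0.43 (212142_at) to 0.53 (222037_at).

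MCM5, whose interface with MCM2 forms the gate through which the ring opens, gave different readings from its 2 probe sets. The probe set 216237_s_at read 0.052 (0 h), 0.026 (2 h), -0.026 (6 h) and -1.36 (12 h). The probe set 201755_at read -0.015, 0.015, 0.20 and -0.50. Both are lowest at 12 h, but only the first was past 2-fold lower than at 0 h, at -1.41 against -0.48. The gene ratio of -0.95 (SD 0.66 over 2) therefore lay just short of 2-fold.

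MCM3 and MCM7 showed the smallest differences of the ring. MCM3, the partner of MCM5, read 0.055 (0 h), -0.055 (2 h), 0.26 (6 h) and -0.37 (12 h) on its 1 probe set, a 12 h over 0 h ratio of -0.43 or 1.34-fold lower. MCM7 read 0.0085, -0.0011, 0.0011 and -0.69 on 208795_s_at. It read -0.028, 0.028, 0.077 and -0.57 on 210983_s_at. The gene ratio of MCM7 was -0.62 (SD 0.11 over 2 probe sets) or 1.54-fold lower. Its first 3 arrays spanned 0.0095 on the first probe set and 0.10 on the second, and the 12 h array lay below them on both.

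Among the factors that activate the ring, MCM10 was the lowest of all 10 members and the 19th lowest of 19775 genes at 12 h over 0 h. Its probe set 222962_s_at read 0.16 (0 h), -0.16 (2 h), 0.17 (6 h) and -1.97 (12 h). The other two read 0.25, -0.049, 0.049 and -1.58 (220651_s_at) and 0.043, -0.043, 0.20 and -1.13 (223570_at). All 3 were past 2-fold lower at 12 h over 0 h, with ratios of -2.13, -1.83 and -1.17. The gene ratio was -1.83 (SD 0.49 over 3), or 3.55-fold lower. Read only by 223570_at, without the probe sets ending in _s_at that can match more than 1 transcript, MCM10 was at -1.17, and MCM6 at -1.57, GINS1 at -1.43 and MCM4 at -1.30 were lower.

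CDC45, the subunit that joins the ring at origin firing, read 0.075 (0 h), 0.070 (2 h), -0.070 (6 h) and -1.11 (12 h) on 1 probe set. Its ratio of -1.19 was 2.28-fold lower. CDC45 was the only member below 0 by more than 0.1 at 6 h over 0 h, at -0.14, and its 0 h and 2 h values were nearly equal.

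GINS1, which encodes PSF1 of the 4-subunit GINS complex, read 0.13 (0 h), -0.13 (2 h), 0.45 (6 h) and -1.29 (12 h) on 1 probe set. The ratio of 12 h over 0 h was -1.43, or 2.69-fold lower. Because its 6 h value was the highest, it was lower still against 6 h, at -1.75 or 3.35-fold.

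GINS2, which encodes PSF2, was the member whose probe sets differed most. The probe set 221521_s_at read 0.025 (0 h), -0.025 (2 h), 0.31 (6 h) and -1.83 (12 h), and was 3.61-fold lower at 12 h than at 0 h. The probe set 1557595_at read 0.016, -0.27, 0.0044 and -0.0044, with hardly any difference between 0 h and 12 h. The probe set 243136_at read 0.24, -0.11, 0.11 and -0.21, a ratio of -0.45. The gene ratio of -0.45 is the last of these (SD 0.96 over 3), and whether GINS2 is counted as 2-fold lower depends on the probe set read.

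**Figure D2:**
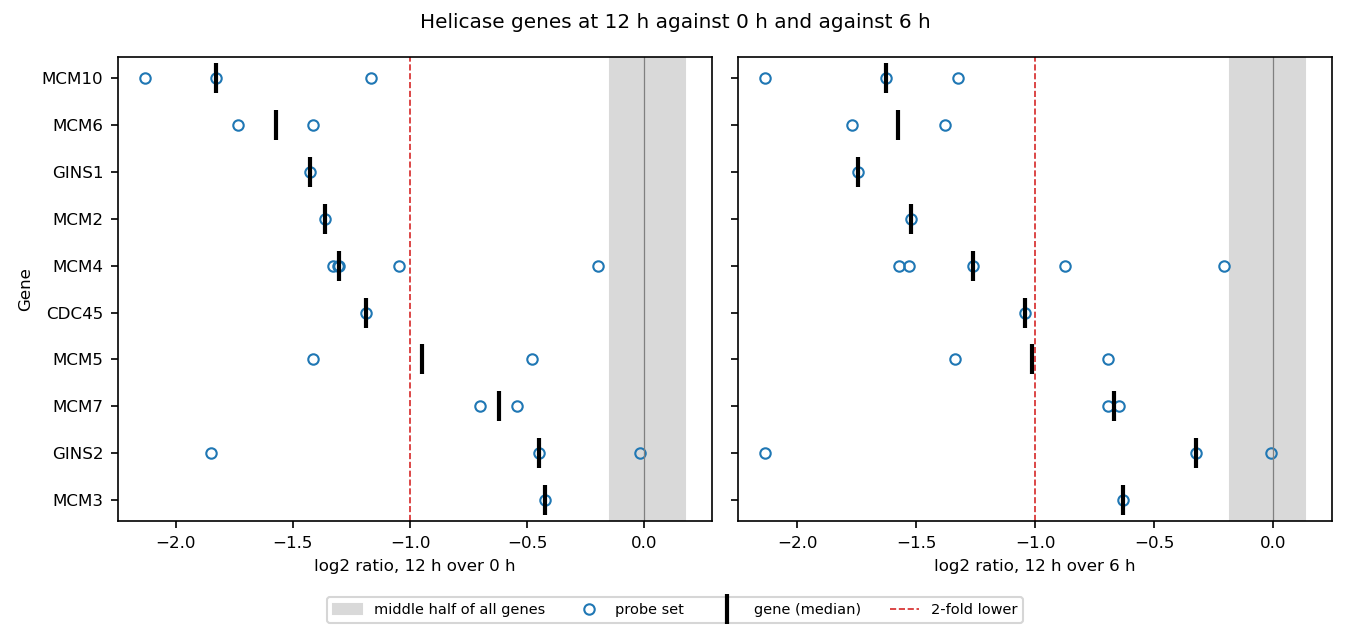
Log2 ratio of 12 h over 0 h (left) and 12 h over 6 h (right) for the 10 helicase genes, with open circles for probe sets, black bars for the gene's median, a dashed line at 2-fold lower and a grey band from the first to the third quartile of all genes. The gene medians run from -1.83 (MCM10) to -0.43 (MCM3) in the left panel, and GINS2 has circles at -1.85 and -0.02.

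In order of the 12 h over 0 h ratio the members ran MCM10, MCM6, GINS1, MCM2, MCM4, CDC45, MCM5, MCM7, GINS2 and MCM3. Neighbours at the low end cannot be ranked: MCM10 and MCM6 differed by less than the SD of MCM10's probe sets, and GINS1, MCM2 and CDC45, with 1 probe set each, have no such error. MCM5 and MCM7 differed by less than the SD of MCM5's probe sets. MCM7 was closer to 0 on both of its probe sets than MCM2, MCM6, MCM10, CDC45 and GINS1 were on any of theirs. MCM2, MCM7 and CDC45 are read only by probe sets whose names end in _s_at, which can match more than 1 transcript.

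Before 12 h the helicase genes differed little from 0 h. At 2 h their median log2 ratio was -0.12, beside 0.016 over all genes. It ran from -0.30 for MCM10, -0.28 for GINS2, -0.27 for GINS1 and -0.21 for MCM2 to 0.023 for MCM7. Below 0 were 8 of 10 members, beside 45.9% of all genes, with MCM5 at 0.0023 and MCM7 the exceptions, and none was past 2-fold lower, beside 0.0101% of all genes. Only MCM10, GINS2, GINS1 and MCM2 lay further from 0 than the robust SD of all genes at that time.

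At 6 h over 0 h the median was 0.028, beside 0.047 over all genes, with none past 2-fold lower (0.283% of all genes). The members ran from -0.14 for CDC45 to 0.32 for GINS1, with MCM3 at 0.21 and MCM2 at 0.16. From 2 h to 6 h, 9 of 10 were higher, beside 56.7% of all genes, with a median of 0.18. GINS1 was at 0.58, MCM2 at 0.37 and MCM3 at 0.31, and CDC45 at -0.14 was the exception. On the bacterial RNA scale MCM7, at -0.043, and MCM5, at -0.0027, were below 0 as well. On the deposited scale, the step from 2 h to 6 h was not particular to the helicase. Its median was higher for origin licensing and G2/M genes (0.33 each), clamp and maturation genes (0.26) and origin firing genes (0.21). It was lower for disassembly (0.16), polymerase (0.15) and fork protection genes (0.029) and for close relatives (-0.032). These lists are described below. The 2 h array enters both the ratio over 0 h and this step, so the lower values at 2 h and the higher values from 2 h to 6 h are not separate readings.

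From 6 h to 12 h all 10 members were lower, beside 54.3% of all genes. Their median was -1.15 and that of all genes -0.024. At or past 2-fold lower were 7 of 10, beside 0.885% of all genes. These were GINS1 at -1.75, MCM10 at -1.63, MCM6 at -1.58, MCM2 at -1.52, MCM4 at -1.26, CDC45 at -1.04 and MCM5 at -1.02. MCM7 was at -0.67, MCM3 at -0.63 and GINS2 at -0.32. The 3 probe sets of GINS2 were far apart here (SD 1.15), from -2.14 for 221521_s_at to -0.0088 for 1557595_at. Centred on the bacterial RNAs, 9 of 10 were below 0, with GINS2 at 0.11 the exception, and 4 were past 2-fold lower, beside 0.268% of all genes. Both comparisons at 12 h use the same 12 h array, so they are 1 reading of it against 2 others.

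**Figure D3:**
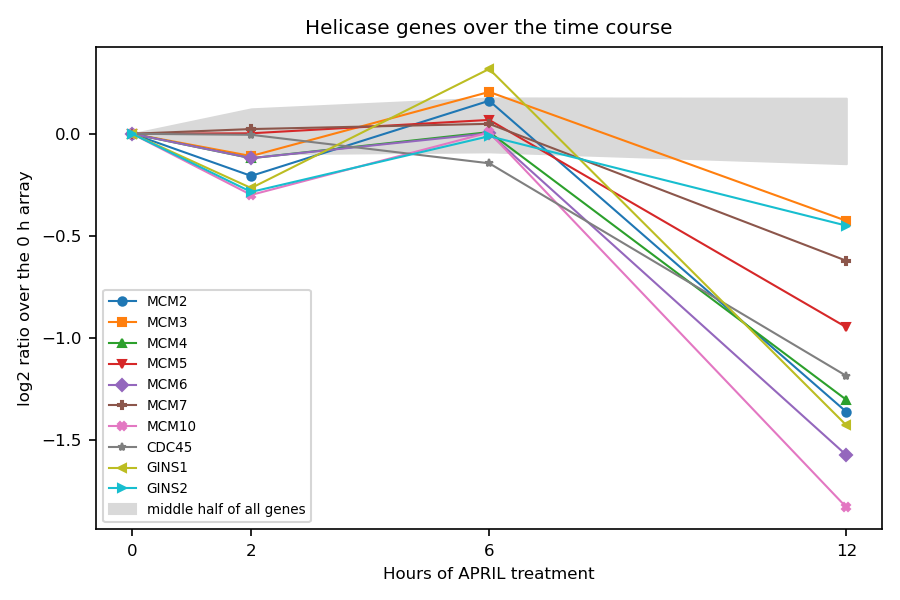
Log2 ratio over the 0 h array against hours of APRIL treatment for the 10 helicase genes (1 line each, median over probe sets), with a grey band from the first to the third quartile of all genes. At 2 h and 6 h the members lie between -0.30 and 0.32, and at 12 h between -1.83 and -0.43, all below the band.

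Close relatives of the members, pooled as 1 list, had a median nearer to 0. The list of the other GINS subunits, MCM paralogs and MCM-binding proteins had a 12 h over 0 h median of -0.21 over 8 genes. Of these, 7 were below 0, beside 47.7% of all genes, and none was past 2-fold. GINS3 was at -0.65 (SD 0.23 over 2 probe sets), GINS4 at -0.49 (SD 0.66 over 4) and MCM9, a paralog that acts in recombination repair, at -0.49 (SD 0.46 over 3). These gene ratios lay within the range of the members, lower than GINS2 at -0.45 and MCM3 at -0.43. The probe sets of GINS2 ran from -1.85 to -0.021 (SD 0.96 over 3), so the order against GINS2 depends on the probe set read. The rest of the list ran from -0.37 (MCM8) to 0.14 (MCMBP). On the bacterial RNA scale this list's median was 0.14, beside 0.36 for all genes: above 0 there, and below the median of all genes on both scales.

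Of 49 genes in 5 further replication lists, 39 were below 0 at 12 h over 0 h and 8 were at or past 2-fold lower, with a joined median of -0.52. Over all genes 47.7% were below 0 and 0.986% at or past 2-fold lower. The counts of each list below stand beside these same shares. The 8 were CDC6, WDHD1, PRIM1, POLE2, PCNA, RFC4, RPA3 and LIG1. Centred on the bacterial RNAs the joined median was -0.17, beside 0.36 for all genes. On that scale 2 were past 2-fold lower, POLE2 and RPA3, beside 0.384% of all genes.

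The clamp, clamp loader and strand maturation list had the companion median nearest to the helicase, -0.91, with 11 of 12 below 0 and 4 past 2-fold lower. In it RPA3, a subunit of the single-strand binding protein RPA, was at -1.39, PCNA, the sliding clamp, at -1.27 and LIG1, which seals Okazaki fragments, at -1.14. The fork protection list was at -0.57, with 5 of 7 below 0. WDHD1, which links CMG to polymerase alpha, was at -1.14 (SD 0.26 over 3 probe sets), TIPIN at -0.84 and its partner TIMELESS at -0.67 (SD 0.23 over 2).

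The replicative polymerase list had a median of -0.50, with 9 of 12 below 0 and 2 past 2-fold lower. POLE2, the second subunit of polymerase epsilon, was at -1.53, PRIM1, the primase, at -1.33 and POLA1, the catalytic subunit of polymerase alpha, at -0.91.

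The origin licensing list, whose products load the MCM ring, had a median of -0.28 and 7 of 9 below 0. CDC6 was at -1.15 (SD 0.076 over 2 probe sets), ORC1, the largest origin recognition subunit, at -0.91 and ORC6 at -0.54. The origin firing list was at -0.17, with 7 of 9 below 0 and none past 2-fold. DBF4, the regulatory subunit of the kinase that phosphorylates the MCM ring, was at -0.72, its kinase CDC7 at -0.43 and TICRR at -0.35 (SD 0.25 over 2). On the bacterial RNA scale the medians of licensing, at 0.068, and of firing, at 0.18, lay above 0 but below the median of all genes, 0.36. TICRR lay at about 0 on that scale.

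Genes that take the helicase off DNA at termination had a median of -0.083. Of these, 4 of 6 were below 0, beside 47.7% of all genes, and none was past 2-fold. LRR1, the receptor of the ligase that marks MCM7, was at -0.46 (SD 0.38 over 2 probe sets), NPLOC4 at 0.41 and UFD1 at -0.28. The G2/M and mitosis list was at -0.37, with 12 of 16 below 0 and none past 2-fold. Cyclin A2 (CCNA2) was at -0.77 (SD 0.038 over 2), TOP2A at -0.72 (SD 0.44 over 3) and KIF11 at -0.70. On the bacterial RNA scale the disassembly list was at 0.27, with UFD1 also above 0, and the G2/M list at -0.021. Both list medians lay below that of all genes, 0.36. No difference between lists was tested.

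**Figure D4:**
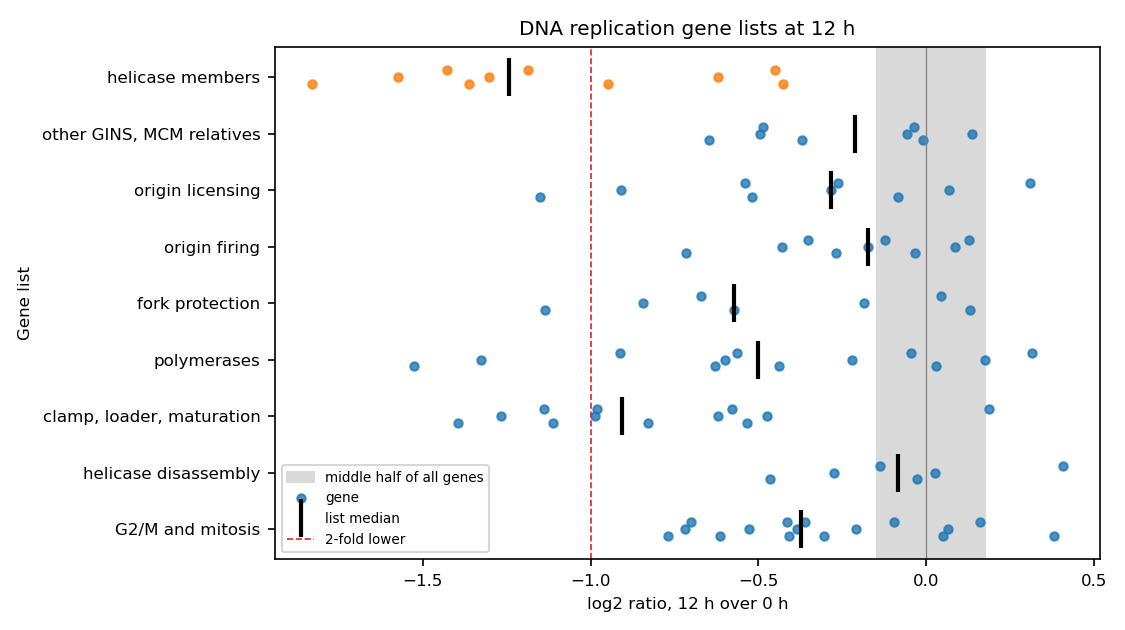
Log2 ratio of 12 h over 0 h for each gene (points) of the helicase and 8 companion lists, with the list median as a black bar, a dashed line at 2-fold lower and a grey band from the first to the third quartile of all genes. The helicase median is -1.24, the clamp list's is -0.91, and the others lie between -0.57 and -0.083.

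An E2F word stood in the promoter windows of 4 of 9 licensing genes with a window, 5 of 11 polymerase genes, 3 of 9 clamp and maturation genes, 2 of 5 firing genes, 2 of 6 fork protection genes, 4 of 6 relatives, 1 of 5 disassembly genes and 1 of 13 G2/M genes. Over all genes with a window the share was 3.99%. Over the array, 824 genes had a window with such a word, the 6 helicase genes included. At 12 h over 0 h, 18 of them (2.18%) were at or past 2-fold lower, the members MCM2, MCM6 and GINS1 among these 18. The share was 0.948% of 14560 genes with windows and no such word. The medians were -0.0038 with and 0.013 without the word. Among the members with the word, MCM6 was at -1.57, GINS1 at -1.43 and MCM2 at -1.36. MCM7 at -0.62, GINS2 at -0.45 (SD 0.96 over 3 probe sets) and MCM3 at -0.43 also had it, and were the members nearest to 0. MCM10 at -1.83, the lowest member, and CDC45 at -1.19 had windows without the word. Whether the word bears on these ratios was not tested.

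The genes whose time course lay nearest to the helicase were found by the root-mean-square difference of their 3 log2 ratios over 0 h from the median of the members, among 10517 other genes with 2 or more probe sets. They were CSRP2 at 0.063, UCP2 at 0.065, GM2A at 0.072, FGD4 at 0.075, ALDH7A1 at 0.076, DUT at 0.083, CHEK1 at 0.11, RRM1 at 0.11, VSNL1 at 0.12 and CASP1 at 0.13. The members themselves lay between 0.036 (MCM4) and 0.48 (MCM3) from their own median by this measure. Genes with 1 probe set were not compared, although MCM2, MCM3, CDC45 and GINS1 have 1 each, so a nearer gene may be missing. PCNA, with 1 probe set, was at -0.20 (2 h), -0.028 (6 h) and -1.27 (12 h) over 0 h. The medians of the members were -0.12, 0.028 and -1.24. Of the 10 nearest genes, RRM1, the large subunit of ribonucleotide reductase, was at -1.26 (SD 0.057) at 12 h and VSNL1 at -1.09 (SD 0.072). The 2 probe sets of each were close. UCP2 (SD 1.01 over 2) and FGD4 (SD 0.81 over 3) had probe sets far apart. With 3 ratios that share the 0 h array, this likeness describes 4 arrays only.

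Markers of cell identity had medians from -0.16 to 0.087. Hepatocyte markers had a 12 h over 0 h median of 0.053 over the 7 of 8 that could be read. Past 2-fold lower was 1 of them, beside 0.986% of all genes: APOB at -1.08 (SD 1.40 over 2 probe sets). TTR was at 0.46 and FGB at 0.45 (SD 0.27 over 2). Markers of other cell types had medians of 0.063 for immune cells (3 of 4 read, with CD3E at 0.096, PTPRC at -0.064 and CD14 at 0.063), 0.087 for fibroblasts (4 of 4, with PDGFRB at 0.89, COL1A1 at 0.12 and COL3A1 at 0.055) and -0.16 for endothelium (4 of 4, with PECAM1 at -0.30, VWF at -0.18 and CDH5 at 0.14). On the bacterial RNA scale, where the median of all genes is 0.36, these medians were 0.41 for hepatocyte, 0.42 for immune, 0.44 for fibroblast and 0.19 for endothelial markers. Centred values hold no level, so the cell line's label could not be checked against these markers.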

How the data were processed

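RNA of 4 HepG2 cultures was measured on 1 array each. The deposited log2 values cover 54675 probe sets and come from RMA (version not stated) per the submitters' processing notes. In it each probe set's median over the arrays is 0 within 1e-06. How the values were centred, their log base and their direction are not given in the sources used here. RMA works in base 2, which was assumed, and higher values were read as more transcript. Gene symbols are those of the platform annotation, updated through gene identifiers to RefSeq (GRCh38.p14), leaving out Affymetrix controls. Ratios were formed per probe set, and a gene takes their median. Python 3.11.15, pandas 2.3.3 and numpy 2.4.6 were used, and the computation was tested on simulated data. A gene was counted at a log2 ratio of 1 or more in size (2-fold). Named genes were all members, the 3 largest 12 h over 0 h differences of each list and the 10 nearest time courses. Nearest time courses were sought among genes with 2 or more probe sets. The other genes named, RFC4 among them, were chosen after their values were seen. The members and lists were chosen with earlier results of these data known. Alternatives were array-median and spike-in centring, leaving out probe sets whose suffix _x_at or _s_at marks possible cross-matching, the mean or the widest-ranging probe set per gene, the mean of the other 3 arrays as reference, and thresholds of 1.5-fold and 3-fold.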

Additional observations from a re-analysis of the deposited data

How the results depend on the processing

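Centred on the bacterial RNAs, the members' median was -0.89 at 12 h over 0 h and -0.72 at 12 h over 6 h, and 4 in place of 7 were past 2-fold lower in the latter. Without probe sets that can match several transcripts 7 members could be read and 4 were past 2-fold lower in each of these comparisons, beside 1.06% and 0.819% of all genes, and MCM10, at -1.17, was no longer the lowest member. With the widest-ranging probe set the 12 h over 6 h median was -1.55. At 3-fold the counts were 1 (12 h over 0 h, beside 0.192% of all genes) and 2 (12 h over 6 h, beside 0.177%). Against the mean of the other 3 arrays, which holds the low 12 h array, the median was 0.20 at 2 h and 0.41 at 6 h. In the other settings run, the medians moved by less than 0.16, the robust SD of all genes between 0 h and 2 h, and counts by no more than 1.5 times. At 12 h over 0 h every member stayed below 0 under each alternative that could read it. At 12 h over 6 h GINS2 was at 0.11 when centred on the bacterial RNAs, a median of 3 probe sets far apart (SD 1.15). No paired analysis was possible because each time has 1 array, and no array could be left out for the same reason. Without levels, signal over background is not known.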

Other observations

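Genes that lie within 1000 bases of a member in RefSeq without overlapping it, and have a probe set of their own, were chosen after the members' values were seen. PRKDC, the DNA-dependent protein kinase beside MCM4, was at a log2 ratio of -0.18 at 12 h over 0 h (SD 0.12 over 3 probe sets), where MCM4 was at -1.30. TPRA1 beside MCM2 was at 0.25, where MCM2 was at -1.36. UFD1 beside CDC45 was at -0.28, where CDC45 was at -1.19. COPS6 beside MCM7 was at -0.33 (SD 0.051 over 2 probe sets), where MCM7 was at -0.62. On the scale of the bacterial RNAs these neighbours all lie above 0, but the median of all genes there is 0.36. Only TPRA1 lies above that median. The values compare 2 arrays, without a test.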
